A study of Homo sapiens with 6 samples.

Results

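Metallothioneins, zinc transporters and the zinc-sensing factor MTF1 were described in KHOS and U-2OS, both established human osteosarcoma cell lines. The set held 10 genes of the 19775 genes with a probe set annotated to 1 symbol. They were the metallothioneins MT1E, MT1F, MT1G, MT1H, MT1M, MT1X and MT2A, the transporters SLC30A1 and SLC39A10, and MTF1. The genes were chosen with earlier results of these data known. Shares of members given beside all probe sets therefore describe the set and do not test it. Membership was by gene name, through the annotation of the Affymetrix U133 Plus 2.0 array, which gave 18 probe sets of 54675. Of these, 16 reached the level used for testing, a mean log2 value of 5.11 over all arrays, which is the median of all probe sets. Each of the 10 genes had at least 1 probe set above that level, and MT1G 210472_at and SLC30A1 242716_at lay under it. No probe set annotated to several symbols included a member.

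Each line had 1 array for each of 3 conditions, the miR-1 vector (miRSelect pEP-miR-1), the miR-null vector (miRSelect pEP-miR-Null) and control, so there were 6 arrays. Cells were exposed to vector, Lipofectamine LTX and Plus Reagent for 48 hours, and RNA of 3 flasks was pooled before hybridization. No vector is named for the controls in the labels, and the sources used here do not give whether control cells were treated with the reagent. With 1 pooled array per line and condition, no p-value measures the spread between cultures. The residual spread of the additive fits is the misfit between the lines, and that of the line-difference fit is the miR-1 to miR-null spread within each line. More RNA per cell and more cells responding cannot be told apart in such pools.

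Metallothioneins are small, cysteine-rich proteins that bind zinc, copper and cadmium. MTF1 is a zinc finger transcription factor that senses free zinc and binds metal response elements (MREs) in the promoters of metallothionein genes and of SLC30A1. SLC30A1, also called ZnT1, moves zinc out of the cell across the plasma membrane, and SLC39A10, also called ZIP10, moves zinc into the cytosol. In mouse and zebrafish cells, MTF1 is known to activate metallothionein genes and to repress the ZIP10 gene. The metallothionein genes lie together on chromosome 16, where 14 of the 15 genes from MT2A to MT1X in the RefSeq order are metallothionein genes or pseudogenes.

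The miRNA that the vector is named for is shown because its seed, bases 2 to 8, in capitals below, is the part that pairs with target transcripts. The sequence is the RefSeq entry for hsa-miR-1-3p, at chr20:62554351-62554372 on the plus strand of GRCh38.p14.
hsa-miR-1-3p: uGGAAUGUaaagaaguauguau

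The promoters below are shown because they carry different numbers of the MRE core that MTF1 binds. Each is the 250 bases before the annotated start, from RefSeq in GRCh38.p14, written in the direction of the gene. Capitals mark the letters TGCACNC or TGCGCNC on either strand. The MT2A window is chr16:56608334-56608583 on the plus strand, the MT1X window is chr16:56682220-56682469 on the plus strand, and the SLC30A1 window is chr1:211579162-211579411 on the minus strand.
MT2A: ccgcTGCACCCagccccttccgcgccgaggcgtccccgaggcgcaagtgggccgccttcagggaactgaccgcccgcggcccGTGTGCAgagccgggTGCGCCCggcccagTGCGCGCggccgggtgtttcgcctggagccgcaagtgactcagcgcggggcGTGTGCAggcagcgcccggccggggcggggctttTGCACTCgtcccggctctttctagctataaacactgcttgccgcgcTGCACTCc
MT1X: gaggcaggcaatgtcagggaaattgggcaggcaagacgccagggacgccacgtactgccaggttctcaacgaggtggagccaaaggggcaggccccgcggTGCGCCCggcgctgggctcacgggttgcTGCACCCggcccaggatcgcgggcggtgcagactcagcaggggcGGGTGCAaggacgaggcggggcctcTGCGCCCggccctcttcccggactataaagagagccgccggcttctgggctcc
SLC30A1: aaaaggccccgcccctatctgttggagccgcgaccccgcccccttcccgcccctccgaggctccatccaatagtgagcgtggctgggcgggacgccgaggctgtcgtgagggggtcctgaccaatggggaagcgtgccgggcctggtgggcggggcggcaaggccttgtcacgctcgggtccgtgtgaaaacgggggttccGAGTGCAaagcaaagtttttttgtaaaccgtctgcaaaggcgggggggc

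The MT2A window held 7 cores, the MT1X window 4 and the SLC30A1 window 1. The window of MT1H, at chr16:56669564-56669813 on the plus strand, held 8. Among 35116 promoter windows of the same length, 24.8% held at least 1 core, 0.370% at least 4 and 0.0313% at least 7. The windows of MTF1 and of both annotated starts of SLC39A10 held 0. Windows were found for 6 of the 10 symbols. A core is a match of letters, not a measured site, and the absence of one says only that these letters are not in that window.

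**Figure D1:**
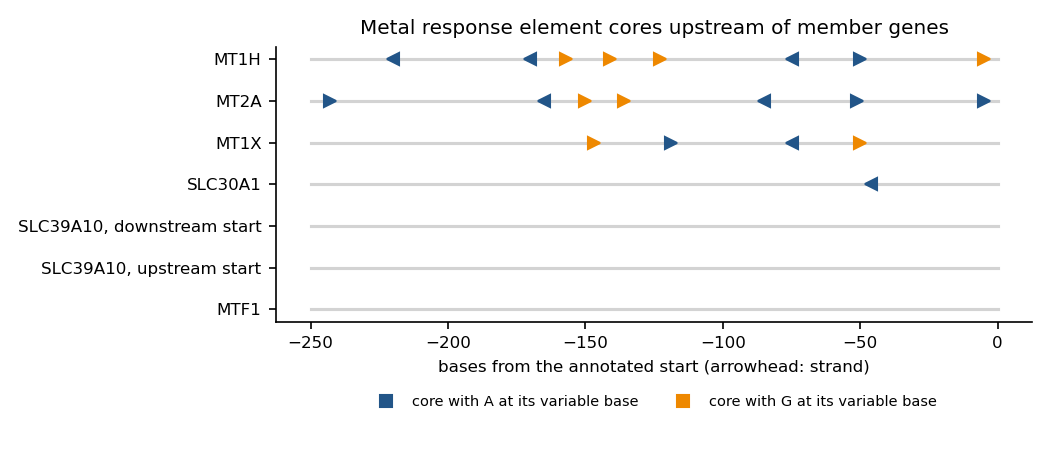
Positions of MRE cores in the 250 bases before the annotated start of each member gene with a promoter window, in bases from the start, with arrowheads giving the strand and colour the core's variable base. MT1H holds 8 cores, MT2A 7, MT1X 4 and SLC30A1 1, and the MTF1 and SLC39A10 windows hold 0.

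Expression values are log2 values from RMA (robust multi-array average), a method that corrects background, normalises the arrays and sums the probes of a probe set, so that 1 unit is a 2-fold difference. Levels are compared between arrays for 1 probe set at a time, not between probe sets. Array medians lay between 4.98 and 5.15. The interquartile range was 3.36 with miR-1, 3.32 with miR-null and 3.24 in control in KHOS, and 2.75 with miR-1, 2.84 with miR-null and 3.07 in control in U-2OS. The control was thus the narrowest array in KHOS and the widest in U-2OS, and the part of this in the results was not tested. The 18 hybridization spike-in probe sets, RNA added at a fixed amount, averaged 9.93 with miR-1, 10.13 with miR-null and 9.76 in control in KHOS, and 11.65 with miR-1, 11.33 with miR-null and 10.81 in control in U-2OS. The control probe set for large-subunit ribosomal RNA read 12.70 with miR-1, 12.41 with miR-null and 11.49 in control in KHOS, and 13.13 with miR-1, 13.02 with miR-null and 12.06 in control in U-2OS. The arrays with a vector were therefore above control in both technical measures in both lines, and the part of this in the results below was not tested. Of bone-lineage markers, COL1A1 and SPARC lay at 10.07 or above on all 6 arrays, whereas SP7, ALPL, IBSP and COL1A2 lay under the level for testing. RUNX2 ranged from 8.98 to 9.85 in KHOS and from 4.23 to 6.74 in U-2OS, CDH11 from 10.08 to 11.10 in KHOS and from 4.09 to 6.17 in U-2OS, and SPP1 from 5.36 to 6.13 in KHOS and from 6.57 to 8.82 in U-2OS. Of the blood markers, PTPRC lay at 3.53 to 3.75 and CD74 at 5.47 to 6.08, and of the endothelial markers, CDH5 lay at 3.59 to 3.89 and PECAM1 at 5.69 to 6.54, while the liver marker ALB lay at 4.54 or below. Of the epithelial markers, EPCAM ranged from 8.43 to 8.70 in KHOS and from 5.49 to 5.96 in U-2OS, KRT8 from 7.34 to 7.45 in KHOS and from 10.24 to 10.93 in U-2OS, KRT18 from 12.28 to 12.87 over both lines, and CDH1 from 3.95 to 4.45.

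The first comparison asked what changed in cells that received either vector, with the miR-1 and miR-null arrays set together against control. SLC30A1 rose, by 2.68 on the log2 scale, or 6.42-fold, on probe set 228181_at. This was 1 of only 2 probe sets to pass among the 27282 tested, or 0.00733%, at an adjusted p below 0.05 in limma with Benjamini-Hochberg adjustment. All other member probe sets missed that threshold, including SLC39A10 (fitted value -1.79) and the metallothioneins MT1X, MT2A and their relatives, whose values are given below by array. The fitted median over the 16 member probe sets was 0.69, beside -0.03 over all probe sets tested, and 14 of the 16 were above 0. At an unadjusted p below 0.05 there were 12 of 16 member probe sets, beside 15.5% of all probe sets, but 8 of the 12 were metallothionein probe sets that share signal.

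SLC30A1, the zinc exporter, had log2 values on 228181_at of 9.61 with miR-1, 9.07 with miR-null and 6.73 in control in KHOS. In U-2OS the values were 10.97 with miR-1, 10.86 with miR-null and 8.16 in control. Both vector arrays stood far above the control of their line, and in both lines by about the same amount. The mean of the vector arrays was 6.12-fold above control in KHOS and 6.74-fold in U-2OS. The fitted change was 2.68 ± 0.17 (SE, 95% interval 2.28 to 3.09, adjusted p = 0.0232 in limma). It passed in each of the 11 alternative fits in which the probe set was tested, with adjusted p from 8.94e-05 to 0.0427. The KHOS change minus the U-2OS change was -0.14 (adjusted p = 0.839 in limma).

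The second SLC30A1 probe set, 212907_at, read 11.76 with miR-1, 11.40 with miR-null and 9.59 in control in KHOS. Its U-2OS values were 11.24 with miR-1, 11.21 with miR-null and 10.24 in control. The vector arrays were again the 2 highest of each line, 3.97-fold above control in KHOS and 1.98-fold in U-2OS. The fitted value of 1.49 ± 0.25 (SE) did not pass (adjusted p = 0.133 in limma). It passed when the prior variance followed the mean (adjusted p = 0.0275 in limma). It also passed when the U-2OS miR-1 array was left out (1.67, adjusted p = 0.0429 in limma), when the KHOS control was (0.98, adjusted p = 0.00959) and when the U-2OS control was (1.99, adjusted p = 0.000309). The third probe set, 242716_at, lay between 3.89 and 4.18 on all 6 arrays, under the level for testing. The probe sets of the gene therefore differ in size and, on 1 of them, in whether a signal was measured at all.

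SLC39A10, the zinc importer, has 1 probe set, 225295_at. It read 7.95 with miR-1, 7.74 with miR-null and 8.84 in control in KHOS. In U-2OS it read 6.47 with miR-1, 6.71 with miR-null and 9.18 in control. Both vector arrays lay under the control in each line, the opposite order to SLC30A1, and the U-2OS vector arrays were the lowest of the 6. The mean of the vector arrays minus control was -0.99 in KHOS and -2.59 in U-2OS. The joint value was -1.79 ± 0.35 (SE) and did not pass (adjusted p = 0.139 in limma). With the KHOS control left out it was -2.59 (adjusted p = 0.000144 in limma), and with the U-2OS control left out -0.99 (adjusted p = 0.0244 in limma). In those fits only the other line compares vector with control, and its lone control is assumed to vary like the other arrays.

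**Figure D2:**
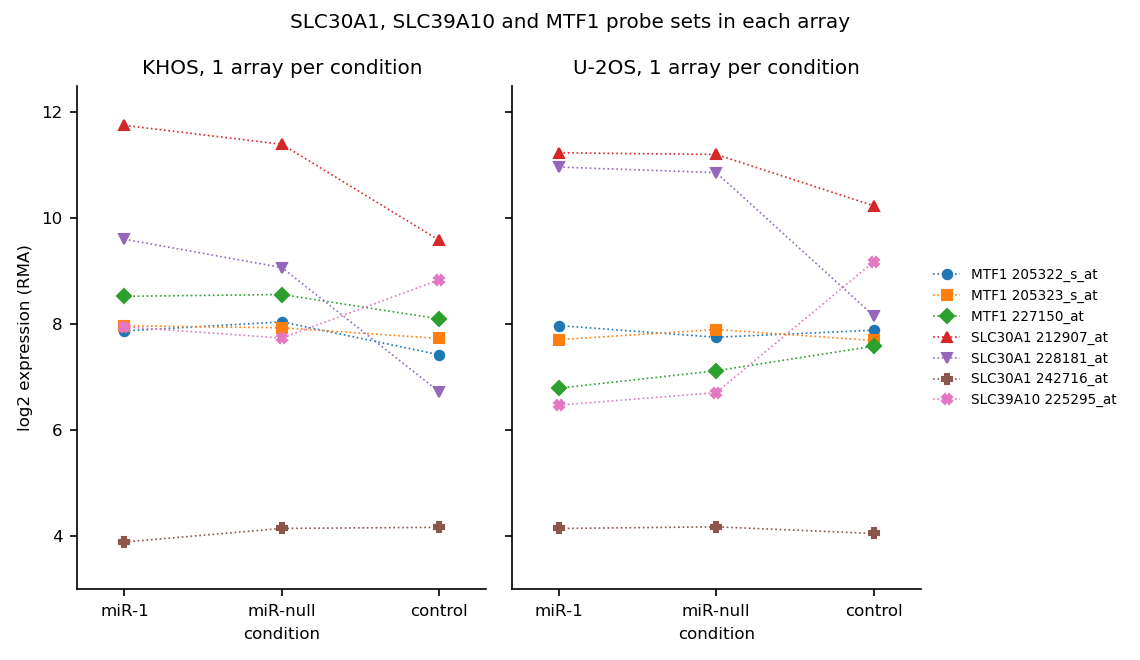
Log2 expression (RMA) of each SLC30A1, SLC39A10 and MTF1 probe set with miR-1, miR-null and control, KHOS left and U-2OS right, 1 array per point. SLC30A1 228181_at and 212907_at stand higher, and SLC39A10 lower, with a vector than in control in both lines, while 242716_at stays between 3.89 and 4.18.

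The metallothionein probe sets with identifiers ending in x_at were 9, covering 6 genes, and such probe sets hold probes that also match related transcripts. The target transcript of MT1X 204326_x_at is listed in RefSeq under MT1L, a transcribed pseudogene of the same cluster. Across the 6 arrays, the 36 pairs among these 9 had Pearson correlations from 0.714 to 0.999, with a median of 0.989, as a description of signal that shares arrays and probes. They are therefore described together, and the gene name of each is the annotation's.

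All 9 had both vector arrays above the control in each line, and the step was larger in U-2OS for all 9. MT2A 212185_x_at, the most widely expressed metallothionein, read 14.24 with miR-1, 14.29 with miR-null and 14.16 in control in KHOS, and 14.73 with miR-1, 14.81 with miR-null and 13.93 in control in U-2OS. MT1X 204326_x_at read 12.65 with miR-1, 12.47 with miR-null and 12.07 in control in KHOS, and 13.91 with miR-1, 13.97 with miR-null and 11.66 in control in U-2OS. The KHOS arrays of MT2A lay within 0.13 of each other, and the larger spread was in U-2OS.

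MT1X 208581_x_at read 13.77 with miR-1, 13.73 with miR-null and 13.58 in control in KHOS, and 14.29 with miR-1, 14.43 with miR-null and 13.21 in control in U-2OS. MT1F 217165_x_at read 13.43 with miR-1, 13.39 with miR-null and 13.22 in control in KHOS, and 14.24 with miR-1, 14.38 with miR-null and 12.67 in control in U-2OS. MT1F 213629_x_at read 11.51 with miR-1, 11.35 with miR-null and 10.97 in control in KHOS, and 11.52 with miR-1, 11.37 with miR-null and 10.29 in control in U-2OS. This last probe set is the exception in which the U-2OS vector arrays were not the 2 highest of the 6, as they were for the other 8. MT1E 212859_x_at read 13.78 with miR-1, 13.75 with miR-null and 13.54 in control in KHOS, and 14.42 with miR-1, 14.44 with miR-null and 13.21 in control in U-2OS. MT1E 216336_x_at read 13.20 with miR-1, 13.20 with miR-null and 13.05 in control in KHOS, and 13.83 with miR-1, 13.94 with miR-null and 12.72 in control in U-2OS. MT1G 204745_x_at read 12.78 with miR-1, 12.80 with miR-null and 12.63 in control in KHOS, and 13.69 with miR-1, 13.56 with miR-null and 12.32 in control in U-2OS. For all of these the U-2OS control was the lowest array. MT1H 206461_x_at read 13.05 with miR-1, 13.02 with miR-null and 12.92 in control in KHOS, and 13.49 with miR-1, 13.51 with miR-null and 12.54 in control in U-2OS. The highest value on any array was 14.81 or above, so the brightest of these sets were close to the top of the scale.

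The mean of the vector arrays was above control by 0.11 to 0.49 in KHOS (median 0.16, range of folds 1.08 to 1.40) and by 0.84 to 2.28 in U-2OS (median 1.17, range of folds 1.79 to 4.86). The medians over all probe sets tested were -0.01 in KHOS and -0.09 in U-2OS. In U-2OS, 8 of the 16 member probe sets were at least 2-fold above control in both vector arrays, beside 0.656% of all probe sets, and 7 of the 8 were in this group, with SLC30A1 228181_at as the other. In KHOS the count was 3 of 16, beside 1.69%, and these were MT1M and both SLC30A1 probe sets, with 0 of the 9. At least 2-fold below control in both vector arrays were 1 of 16 in U-2OS, SLC39A10, beside 3.24%, and 0 of 16 in KHOS, beside 0.147%. The fitted joint values of the 9 ran from 0.47 to 1.39, with adjusted p from 0.168 to 0.340 in limma, so 0 passed, while 8 had an unadjusted p below 0.05. With the KHOS control left out, so that U-2OS alone compares vector with control, all 9 passed, among 12 of 16 member probe sets and 16.4% of all. With the U-2OS control left out none of the 9 passed, among 4 of 16 and 4.15% of all.

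**Figure D3:**
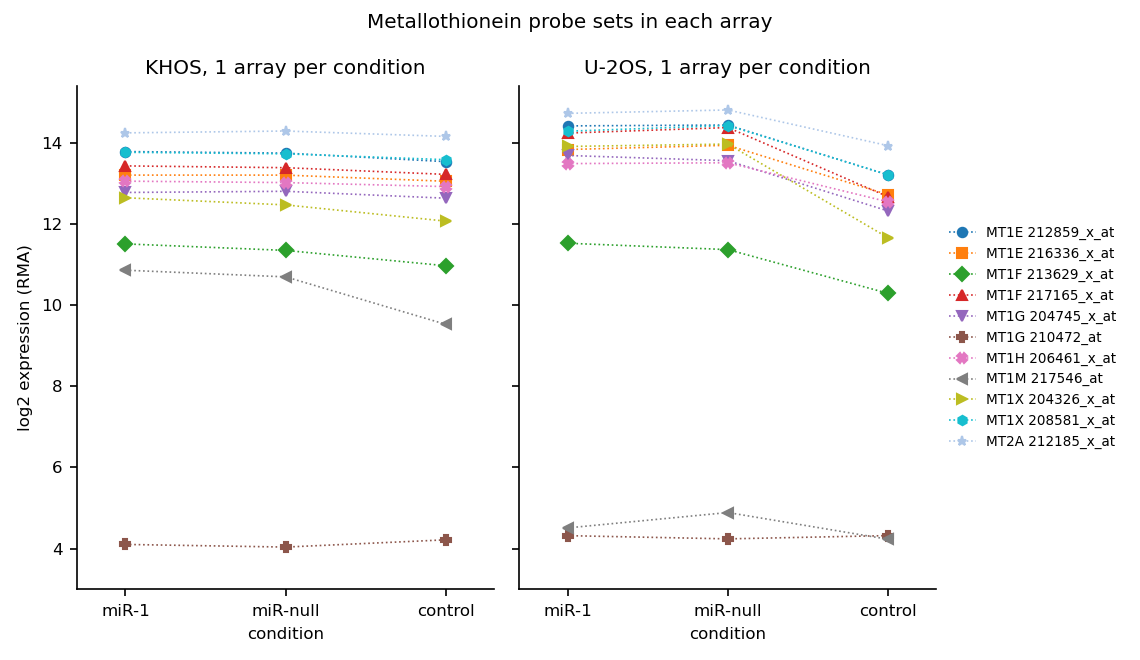
Log2 expression (RMA) of each metallothionein probe set with miR-1, miR-null and control, KHOS left and U-2OS right, 1 array per point. In U-2OS the 9 x_at probe sets sit 0.84 to 2.28 above control with a vector, in KHOS 0.11 to 0.49, and MT1M is near 10 in KHOS and near the floor in U-2OS.

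MT1M 217546_at is not an x_at probe set and followed another pattern. Its values were 10.86 with miR-1, 10.70 with miR-null and 9.52 in control in KHOS, and 4.51 with miR-1, 4.89 with miR-null and 4.23 in control in U-2OS. All 3 KHOS arrays lay above all 3 U-2OS arrays, and the U-2OS values lay under 5.11, the level used for testing. The vector arrays were 2.39-fold above control in KHOS, and the joint value of 0.86 ± 0.23 (SE) did not pass (adjusted p = 0.184 in limma). With the U-2OS control left out, so that KHOS alone compares vector with its 1 control, the MT1M value was 1.25. MT1M was tested only because its KHOS values lifted its mean over the level, so these values are a description. Its correlation with the x_at sets across the 6 arrays ran from -0.391 to 0.340. MT1G 210472_at, the other metallothionein probe set without shared probes in its name, lay between 4.04 and 4.32 on all 6 arrays, unlike MT1G 204745_x_at.

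MTF1, the zinc sensor, was measured by 3 probe sets. On 205322_s_at it read 7.87 with miR-1, 8.05 with miR-null and 7.42 in control in KHOS, and 7.98 with miR-1, 7.76 with miR-null and 7.89 in control in U-2OS. On 205323_s_at it read 7.97 with miR-1, 7.93 with miR-null and 7.73 in control in KHOS, and 7.71 with miR-1, 7.90 with miR-null and 7.69 in control in U-2OS. On 227150_at it read 8.53 with miR-1, 8.56 with miR-null and 8.10 in control in KHOS, and 6.79 with miR-1, 7.12 with miR-null and 7.59 in control in U-2OS. The vector arrays lay above control in KHOS on all 3 probe sets, and in U-2OS they straddled it, lay 0.11 above it in the mean or lay under it. Joint values were 0.26, 0.17 and -0.09, and none passed (adjusted p from 0.574 to 0.896 in limma). Over all members, 13 of 16 probe sets had every vector array above the control of its line, beside 14.3% of all probe sets. The 13 are not separate results, since 9 were the metallothionein x_at sets that share signal. MT1M, with U-2OS values under the level for testing, both tested SLC30A1 probe sets and MTF1 205323_s_at were the others.

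The difference between the lines was then tested directly, as the KHOS change minus the U-2OS change with either vector. Each line has 1 control array, so the spread of controls never enters this test and the p-values may be too small. Of the members, 3 of 16 passed, beside 1.06% of all probe sets. In the negative direction, a larger step in U-2OS, were MT1X 204326_x_at (-1.79 ± 0.25, adjusted p = 0.0295 in limma) and MT1F 217165_x_at (-1.45 ± 0.24, adjusted p = 0.0438 in limma), beside 0.0916% of all probe sets. In the positive direction was SLC39A10, which was lower with a vector by more in U-2OS (1.59 ± 0.27, adjusted p = 0.0473 in limma), beside 0.964%. The other 7 metallothionein x_at probe sets had values down to -1.15 and up to -0.70, and all 9 had an unadjusted p below 0.05, beside 21.1% of all probe sets. The 3 passing values were -1.78, -1.47 and 1.38 after a further quantile normalization but no longer passed (adjusted p = 0.0934, 0.107 and 0.131 in limma), and that step moved the median of all probe sets by over 0.1, to -0.03, where it had been 0.14. They also missed the threshold when the KHOS miR-null array (adjusted p = 0.192, 0.223 and 0.199 in limma) or the KHOS miR-1 array (adjusted p = 0.172, 0.230 and 0.250) was left out. The spike-in probe sets also stood further above control with a vector in U-2OS (0.68) than in KHOS (0.27), and their part in this difference was not tested.

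MTF1 227150_at had a line difference of 1.07 ± 0.27 (SE), with the vector arrays 0.44 above control in KHOS and 0.63 below it in U-2OS, and did not pass (adjusted p = 0.0989 in limma). The plot of the change in one line against the other shows these groups apart.

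**Figure D4:**
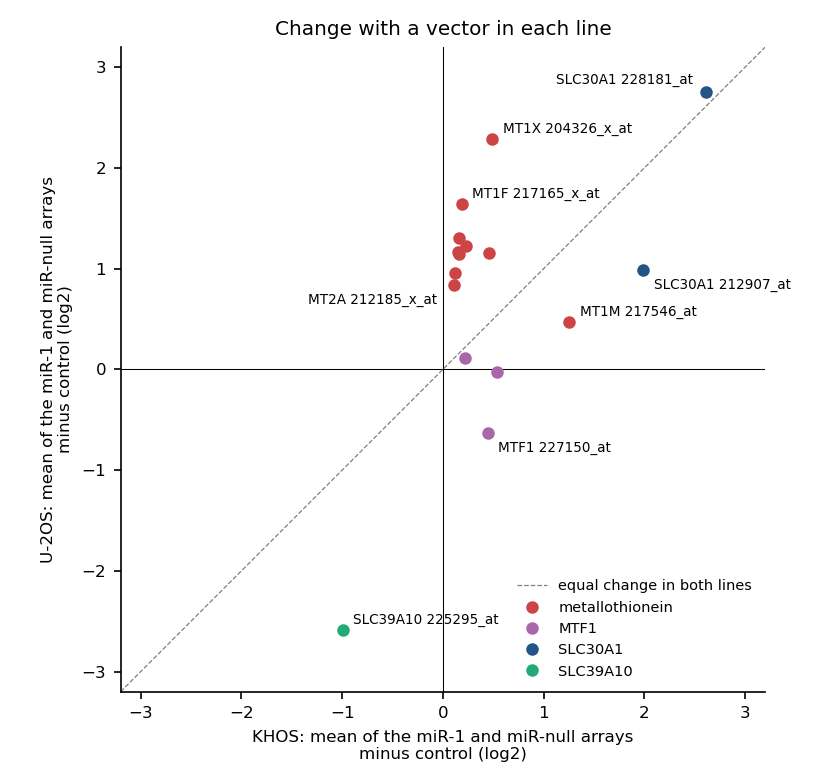
Mean of the miR-1 and miR-null arrays minus control (log2) in KHOS (x axis) and U-2OS (y axis) for the 16 member probe sets tested, with the dashed line marking equal change. The metallothionein x_at sets lie above the line with little change in KHOS, SLC30A1 228181_at lies on it near 2.7, and SLC39A10 lies below it.

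**Figure D5:**
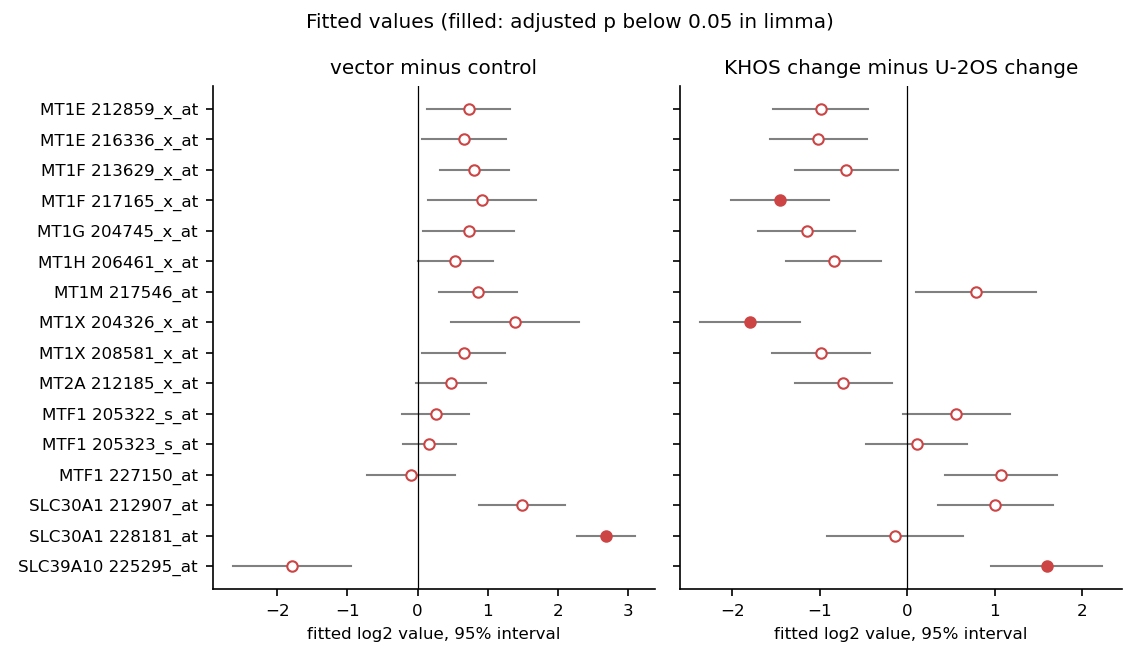
Fitted log2 values with 95% intervals for the 16 member probe sets, left for vector minus control over both lines and right for the KHOS change minus the U-2OS change; filled points have an adjusted p below 0.05 in limma. One point is filled on the left, SLC30A1 228181_at at 2.68, and 3 on the right, MT1X 204326_x_at at -1.79, MT1F 217165_x_at at -1.45 and SLC39A10 at 1.59.

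The comparison of miR-1 with miR-null asks what the miRNA adds to the vector. No member probe set passed, with fitted values from -0.18 to 0.32, all adjusted p at 0.999994 in limma, and 0 of 16 with an unadjusted p below 0.05. Over all 27282 probe sets 0 passed and 0.766% had an unadjusted p below 0.05. The 95% intervals of this fit typically reached 0.68 on either side of a value, so it could miss smaller differences. Passing also required the adjustment over all probe sets, so larger differences could be missed too. The residual spread of the fit holds the misfit between the lines, including their difference in the change with a vector. Whether the arrays themselves could show a difference with miR-1 was not tested. In the fit on the 4 arrays compared, 1234 of 27282 probe sets had an unadjusted p below 0.05 in limma, beside 209 in the main fit. That is no more than this threshold lets through where nothing differs. Of the members, 0 of 16 had an unadjusted p below 0.05 there, and 0 probe sets passed. The largest value was that of SLC30A1 228181_at, 0.32 ± 0.20 (SE), which was 0.53 in KHOS and 0.10 in U-2OS. SLC39A10 was 0.21 higher with miR-1 in KHOS and 0.24 lower in U-2OS.

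The comparison of miR-null with control shares its control arrays and its miR-null arrays with the joint comparison, so its values stand beside that one and add no support. SLC30A1 228181_at was 2.52 (adjusted p = 0.0867 in limma) and SLC39A10 -1.78, and 0 of 16 member probe sets passed, beside 0.00367% of all, with 9 of 16 at an unadjusted p below 0.05, beside 9.93%. In the fit on the 4 arrays compared, SLC30A1 228181_at passed (adjusted p = 0.0239 in limma), as it did when the prior variance followed the mean (adjusted p = 0.00616 in limma). With the KHOS control left out, 12 of 16 member probe sets passed, beside 10.1% of all, and with the U-2OS control left out 4 did, beside 3.03%.

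Between the lines, over all conditions, KHOS minus U-2OS passed for 3 of 16 member probe sets, beside 51.5% of all probe sets. Of these 2 were higher in KHOS, beside 30.5%, and 1 lower, beside 21%, and 3 of 16 had an unadjusted p below 0.05, beside 59.1%. MT1M was one of the 2, with means of 10.36 in KHOS and 4.54 in U-2OS. It was tested only because its KHOS values lifted its mean over the level, and its U-2OS values lie under that level, so its difference is given as a description, with no p or interval, and its call supports nothing. MTF1 227150_at was higher in KHOS by 1.23 ± 0.25 (SE, adjusted p = 0.00681 in limma), and its other probe sets did not pass. SLC30A1 228181_at was lower in KHOS, with a difference of -1.53 ± 0.16 (SE, adjusted p = 0.000482 in limma), while 212907_at differed by 0.02 (adjusted p = 0.951), so the probe sets of this gene disagree. The 9 metallothionein x_at sets ran from -0.78 to 0.22, with adjusted p from 0.109 to 0.489 in limma. In the control arrays alone all 9 were higher in KHOS, by 0.23 to 0.68, whereas for 8 of the 9 both U-2OS vector arrays lay above all KHOS arrays. With either control array left out, the other control is fitted exactly, so both fits are the same comparison of the 4 vector arrays. In it 12 of 16 passed, beside 64.0% of all, and the MT1X 204326_x_at value was -1.38 (adjusted p = 2.04e-05 in limma).

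The other genes of zinc and copper handling were taken from a list of 42, of which 30 were tested, 5 lay under the level and 7 had no probe set of their own symbol. None of the 30 passed in either direction for vector against control (smallest adjusted p = 0.174 in limma), for miR-1 against miR-null (smallest adjusted p = 0.999994), for miR-null against control (smallest adjusted p = 0.406) or for the line difference (smallest adjusted p = 0.0873), and the median for vector against control was -0.03, equal to that over all probe sets. Between the lines 9 were higher and 9 lower in KHOS, beside 51.5% of all probe sets passing. Higher in KHOS were the zinc transporters SLC30A5 (1.87), SLC30A6 (1.23) and SLC30A7 (1.14), which load zinc into the secretory pathway, TMEM163 (1.36), SLC30A9 (0.81) and the copper chaperone CCS (0.68). Lower in KHOS were the zinc importers SLC39A11 (-2.42) and SLC39A4 (-0.91), the vesicle transporters SLC30A3 (-1.28) and SLC30A4 (-0.99), COMMD1 (-0.93), which takes part in copper export, and the copper-zinc enzyme SOD1 (-0.86). The importer family went both ways, since SLC39A3 (0.49), SLC39A6 (0.55) and SLC39A7 (0.50), named after their values were seen, were also among those higher in KHOS. MT1HL1 211456_x_at, singled out after its values were seen, read 13.66 with miR-1, 13.68 with miR-null and 13.57 in control in KHOS, and 14.18 with miR-1, 14.32 with miR-null and 13.14 in control in U-2OS, an order like that of the metallothionein x_at sets.

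Genes with the most similar profile were sought among 12938 genes, by Pearson's r over the 6 arrays after subtracting each line's mean. The metallothionein mean took in all 10 probe sets tested, the 9 x_at sets and also MT1M, whose step was larger in KHOS. Closest to that mean were SRGN, TRAF3IP2-AS1, SMG1P5, LY96 and HID1, with r from 0.997 to 0.999. Of these LY96, the MD-2 partner of the receptor TLR4, was 0.61 above control with a vector in KHOS and 1.86 in U-2OS, and SRGN, which encodes the proteoglycan serglycin, was 0.09 and 0.38. Closest to SLC39A10 were ATL3, GRAMD1C, GINS4, DNMT1 and SYNE2, with r from 0.998 to 0.999. DNMT1, the maintenance DNA methyltransferase, was -0.28 in KHOS and -0.65 in U-2OS, and ATL3, an atlastin that shapes the endoplasmic reticulum, was -0.57 and -1.54. With 6 arrays such values are common, since 166 genes had r over 0.95 with the metallothioneins and 856 with SLC39A10.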

How the data were processed

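Values of 1 Affymetrix array for each of 2 cell lines and 3 conditions were taken as deposited. They are log2 expression values that the authors made by RMA in Qlucore 3.2, per the design text in the series' labels, and RMA is also named in the submitters' processing notes. Pooling of RNA from 3 flasks averaged over cultures and left the spread between them unmeasured, and precision is limited by the number of arrays. The 62 control probe sets were left out of the tests. Gene names came from the platform annotation, in which 41091 probe sets had 1 symbol, 1801 several and 11721 none, and the 18 member probe sets all matched a RefSeq gene by Entrez identifier.

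The tests were those of limma 3.58.1 (lmFit, then eBayes; R 4.3.3), over the 27282 probe sets at or above a mean of 5.11, with Benjamini-Hochberg adjustment over all of them. Line and the 3-level condition were additive terms, with 2 residual degrees of freedom, and either vector against control was the mean of the miR-1 and miR-null terms. The line difference was the interaction of line with either vector. In simulated data with changes equal in both lines, the code returned their size on average. No line difference was simulated and no rate of correct calls was required, so this does not bear on the calls. Descriptions used Python 3.11.15. The members and lists were chosen with earlier results of these data known. Every member probe set was named. Of the zinc and copper list, up to 6 genes per direction were named where they passed, and 5 genes were named by likeness. The alternatives were another level filter, quantile normalization, 1 probe set per gene, a prior variance trend, the compared arrays only, an exact Mann-Whitney test and leaving out each array. No sequences for MT1E, MT1F, MT1G and MT1M were used here.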

Additional observations from a re-analysis of the deposited data

Results flagged for a closer look

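Members stood out because the change with a vector differed between KHOS and U-2OS. MT1X 204326_x_at had a KHOS change minus U-2OS change of -1.79 and MT1F 217165_x_at of -1.45, both past the test of the difference, with vector arrays further above control in U-2OS. SLC39A10 225295_at had a value of 1.59, also past the test, with vector arrays further below control in U-2OS. MTF1 227150_at had a value of 1.07 because both vector arrays lay above control in KHOS and both below it in U-2OS. The test of that difference gave an adjusted p of 0.0989 in limma.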

How the results depend on the processing

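With 1 array per line and condition, and no replicate numbers in the labels, there were no replicate arrays to pair. Conditions were compared within a line, since line was a term in every limma fit. Over the alternatives, 736 values for single member probe sets kept their direction and side of the threshold, 76 newly passed, 9 no longer passed and 45 changed sign. The number of member probe sets passing for vector against control was 1 (0.00733% of all). It became 2 when the prior variance followed the mean (0.674%). With 1 probe set per gene it was 0 of 10 (0.0232%), and SLC30A1 228181_at, which passed in the main fit, was not in that fit. For miR-null against control the number was 0 (0.00367%), and became 1 with that prior variance (0.132%) and 1 on the 4 arrays compared (0.0660%). With 1 array left out, both numbers moved most when that array was a control, where only 1 line compares vector with control. For miR-1 against miR-null it was 0 in every limma fit. An exact two-sided Mann-Whitney test of the miR-1 arrays against the other 4 cannot go below p = 0.133, so its count of 0 says nothing. For KHOS against U-2OS the number was 3 (51.5% of all), became 1 of 10 with 1 probe set per gene (54.8%), and ranged from 3 to 12 when 1 array was left out. The 12 came without either control array, from the vector arrays alone (64.0%). SLC30A1 228181_at and MTF1 227150_at, which passed in the main fit, were not in the fit with 1 probe set per gene. For the line difference it was 3 (1.06% of all probe sets), became 7 with a 75th percentile filter (4.49%), 0 after quantile normalization and 11 with the prior variance (4.22%), and ranged from 0 to 9, with the 9 found without the U-2OS miR-null array (12.6%). Without a control array the line difference could not be estimated. Over all probe sets, KHOS against U-2OS gave 8323 higher and 5728 lower, but 6818 and 7577 after quantile normalization. The line difference gave 263 and 25, but 3 and 3 after quantile normalization. Vector against control gave 2 and 0, 22 and 1 after quantile normalization, 112 and 72 with the prior variance, and 98 and 66 with vector as a single term with 3 residual degrees of freedom, an alternative chosen after seeing the data. It gave 842 and 3627 without the KHOS control, but 952 and 180 without the U-2OS control, so the balance of directions turned over. After quantile normalization the sign changed for miR-null against control at MTF1 227150_at (0.052), for KHOS against U-2OS at MTF1 205323_s_at (-0.24) and SLC30A1 212907_at (-0.14), and for the line difference at MTF1 205323_s_at (-0.22), and the cause was not tested. Leaving out 1 array changed the sign for these values, given as ranges. Vector against control ran from -0.022 to 0.54 at MTF1 205322_s_at and from -0.63 to 0.44 at MTF1 227150_at. miR-null against control ran from -0.041 to 0.53 and from -0.54 to 0.53 at the same probe sets. KHOS against U-2OS ran from -0.28 to 0.094 at MTF1 205322_s_at, from -0.23 to 0.36 at SLC30A1 212907_at and from -0.018 to 0.33 at MT1F 213629_x_at, and the line difference from -0.41 to 0.13 at SLC30A1 228181_at. miR-1 against miR-null ran from -0.26 to 0.28 and -0.35 to 0.24 at MT1E 212859_x_at and 216336_x_at, -0.018 to 0.33 and -0.48 to 0.38 at MT1F 213629_x_at and 217165_x_at, -0.30 to 0.40 at MT1G 204745_x_at, -0.22 to 0.24 at MT1H, -0.51 to 0.29 at MT1M, -0.48 to 0.59 and -0.36 to 0.26 at MT1X 204326_x_at and 208581_x_at, and -0.26 to 0.13 at MT2A. It ran from -0.26 to 0.31, -0.19 to 0.036 and -0.56 to 0.20 at MTF1 205322_s_at, 205323_s_at and 227150_at, -0.18 to 0.57 at SLC30A1 212907_at and -0.58 to 0.55 at SLC39A10.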
